A study of Mus musculus with 2 samples.

Results

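Among cells profiled as innate lymphocytes of the aged mouse gut, 185 of 7177 carried a UMI (a distinct captured RNA molecule) of Trdc, the constant gene of the T cell receptor delta chain, without any UMI of the CD3 genes that a surface receptor needs. They were chosen by their counts of 7 genes: at least 1 Trdc UMI, no UMI of Trac, Cd3d, Cd3e or Cd3g, and fewer than 2 UMIs of Ccl5 and Gzma together. Cells with under 300 detected genes or over 25% of their UMIs from mitochondrial genes had been removed. They are called Trdc+ CD3-zero cells below. There were 65 of them in replicate 1, which is 1.95% of the kept cells with an exact 95% interval of 1.51% to 2.48%, and 120 in replicate 2, which is 3.13% with an interval of 2.60% to 3.73%. The mean share was 2.54% ± 0.832 (SD, n = 2). All intervals here are Clopper-Pearson intervals and cover counting error only.

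The study profiled group 3 innate lymphoid cells (ILC3s) from the small-intestinal lamina propria of male C57BL/6 mice aged 18 months, with whole-transcriptome single-cell RNA-seq on the BD Rhapsody system. There was 1 group, with no young or treated mice, and 2 replicates in separate libraries, each marked by its own sample tag (tag 6 in replicate 1, tag 12 in replicate 2). The libraries held 15793 and 16531 cells, of which 3427 and 3954 carried the tag used here. Multiplets numbered 572 and 987, and undetermined cells 1128 and 674. Most cells of each library thus had other tag calls and were not used. The labels do not say that the replicates came from separate animals or how many mice were pooled. The p-values therefore measure only how consistently the classes differed across these 2 samples. Replicate 1 gave 3337 kept cells with a median of 1880 UMIs and replicate 2 gave 3840 with a median of 1674. Of the barcodes carrying the tags, 10 occurred in both libraries. The kept cells were not all ILC3s: 719 in replicate 1 and 640 in replicate 2 had both Trac and CD3 UMIs, and 99 and 7 were stromal, with at least 3 collagen UMIs and no UMI of Ptprc, the gene of the leukocyte antigen CD45.

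For comparison, 2 classes were drawn from the same libraries, with the same limit on Ccl5 and Gzma. CD3-positive Trdc cells had a Trdc UMI, no Trac UMI and at least 1 CD3 UMI (108 cells in replicate 1 and 105 in replicate 2). Trdc-zero cells had no UMI of Trdc, Trac or CD3 (1905 and 2293 cells). Median depth was 2101 and 1662 UMIs in Trdc+ CD3-zero cells, 2042.5 and 1786 in CD3-positive Trdc cells, and 1786 and 1621 in Trdc-zero cells.

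A gamma delta T cell builds its receptor from a rearranged gamma and a rearranged delta chain, which reach the surface only with the CD3 subunits and the zeta chain encoded by Cd247. In the gut, gamma delta T cells that make IL-17 share several cytokines with ILC3s. ILC3s have no rearranged antigen receptor; they are sustained by IL-7, many express the stem cell factor receptor Kit, and they are a main source of IL-22, which acts on the epithelium. Transcripts from receptor constant genes can occur without a complete receptor, so a constant-gene UMI does not by itself identify a T cell.

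Trdc lies at chr14:54142851-54148868 on the plus strand (GRCm38, GENCODE M21), where its annotated span overlaps Trdv5 and Gm43434, and the sources used here do not state whether counting used the strand. Kit lies at chr5:75574916-75656722 on the plus strand. The Trdc signal in the Trdc+ CD3-zero cells was low. In replicate 1, 55 of the 65 cells held exactly 1 Trdc UMI, and in replicate 2, 92 of 120 did, which is 79.5% of all 185. The highest count was 6 in replicate 1 and 11 in replicate 2. The median was 1 Trdc UMI in both replicates, against medians of 5 and 3 in CD3-positive Trdc cells. Trdc summed to 639 and 917 CPM (UMIs scaled to a class total of 1000000) in Trdc+ CD3-zero cells and to 2743 and 2371 CPM in CD3-positive Trdc cells. These values were used to choose the cells and are given as a description.

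Of all cells without Trac and CD3 UMIs, 3.30% in replicate 1 (65 of 1970, interval 2.56% to 4.19%, median 1789 UMIs) and 4.97% in replicate 2 (120 of 2413, 4.14% to 5.92%, median 1622 UMIs) had a Trdc UMI. Stromal cells, which should lack the gene, were held to the same filter for comparison. Of the stromal cells without Trac and CD3 UMIs, 3.95% in replicate 1 had a Trdc UMI (3 of 76, 0.822% to 11.1%, median 2156 UMIs), and in replicate 2 it was 0 of 6 (interval up to 45.9%). In replicate 1 the Trdc share of the cells without Trac and CD3 was therefore within the interval of a cell type that should lack Trdc, and the few stromal cells of replicate 2 allowed no reading. That interval was wide, and of the 3 stromal cells with Trdc, 2 held 1 Trdc UMI and 1 held 2 or more. The comparison therefore could not tell whether a Trdc UMI stood above background. The label of Trdc-expressing cells could not be checked by it. Among Trac-positive cells without CD3 the share was 1.28% (2 of 156, 0.156% to 4.55%) and 5.49% (14 of 255, 3.03% to 9.04%). The stromal cells of replicate 1 were themselves not free of lymphocyte RNA: 51 of all 99 had a UMI of Fcer1g and 13 of Cd3e.

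**Figure D1:**
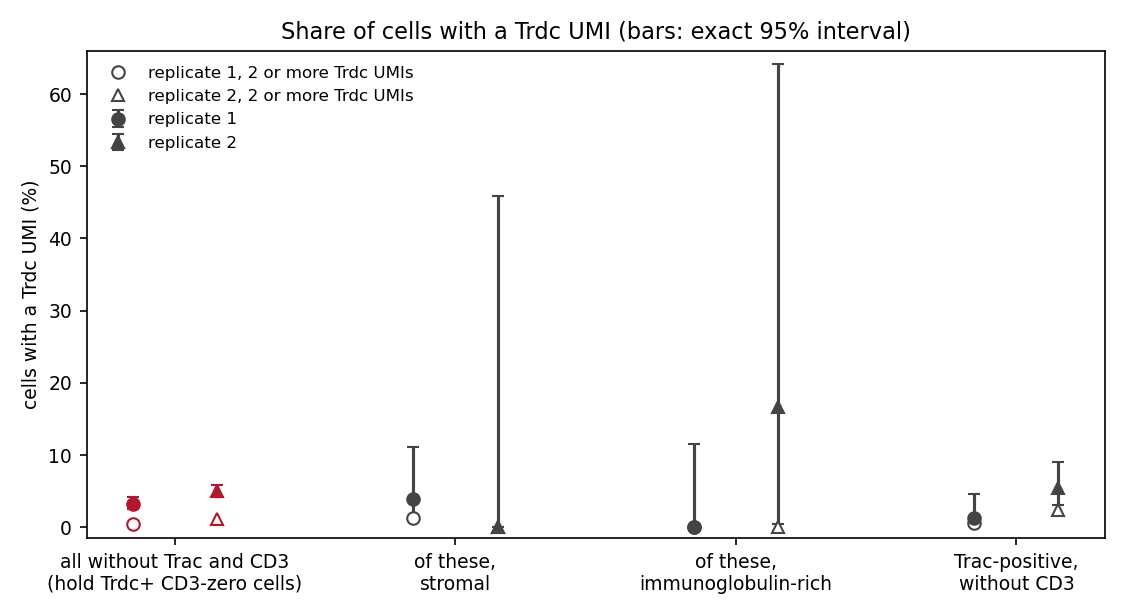
Share of cells with a Trdc UMI (filled) and with 2 or more Trdc UMIs (open) in 4 sets of kept cells without CD3 UMIs, circles for replicate 1 and triangles for replicate 2; bars are exact 95% intervals. All cells without Trac and CD3 UMIs are at 3.30% and 4.97%, inside the wide intervals of the stromal cells among them (3.95% and 0%).

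CD3 UMIs were missing mainly where Trdc was barely detected. Among Trdc-positive Trac-zero cells with 1 Trdc UMI, 79.7% in replicate 1 (55 of 69) and 77.3% in replicate 2 (92 of 119) had no CD3 UMI. With 2 Trdc UMIs it was 26.3% (5 of 19) and 39.3% (11 of 28), and with 3 to 5 it was 12.5% (4 of 32) and 25.6% (11 of 43). With 6 or more Trdc UMIs, 1 of 53 cells in replicate 1 and 6 of 35 in replicate 2 lacked CD3. The order was the same in both replicates.

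**Figure D2:**
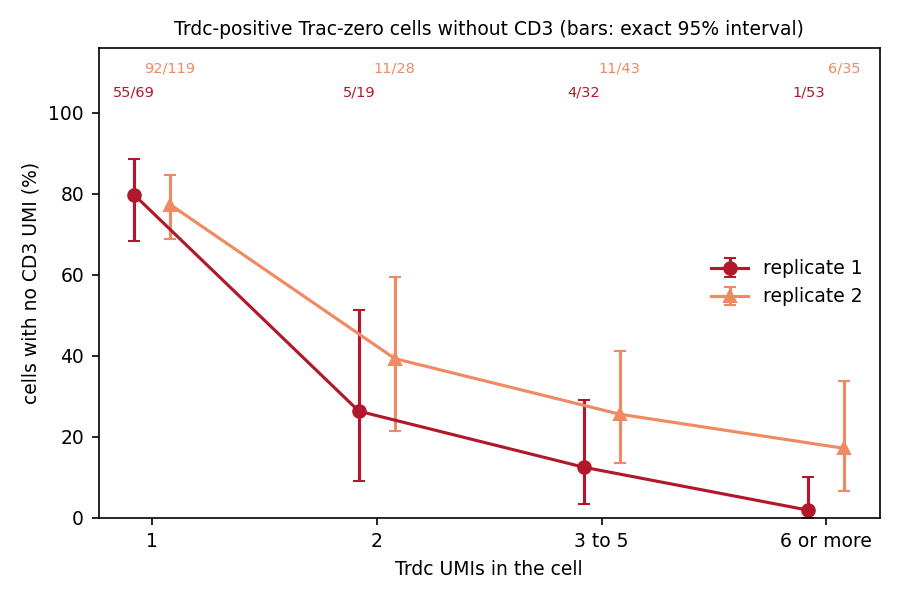
Percent of Trdc-positive Trac-zero cells with no CD3 UMI, by the number of Trdc UMIs in the cell; bars are exact 95% intervals, and the numbers above give cells without CD3 over all cells. The share is 79.7% and 77.3% at 1 UMI and 1.89% and 17.1% at 6 or more.

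Depth per cell gave no comparable gradient. In cells of 1000 to 2000 UMIs the share without CD3 was 35.1% (27 of 77) in replicate 1 and 52.6% (72 of 137) in replicate 2, and in cells of 2000 to 4000 UMIs it was 39.8% (33 of 83) and 52.2% (35 of 67). Below 1000 UMIs it was 3 of 4 and 11 of 17 cells, and from 4000 UMIs on 2 of 9 and 2 of 4, counts too small for an order. Just outside the gate stood 16 cells in replicate 1 and 35 in replicate 2 with exactly 1 CD3 UMI; of these 31.3% and 8.57% had a Kit UMI. On the other edge, 3 and 7 Trdc+ CD3-zero cells held 1 UMI of Ccl5 or Gzma, and 3 and 4 cells with 2 or more were left out.

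Innate lymphoid genes were much higher in Trdc+ CD3-zero cells than in CD3-positive Trdc cells. Counts were summed per class and replicate and tested with edgeR's quasi-likelihood test, with the replicate as a block and Benjamini-Hochberg adjustment over 3927 genes; the 7 gate genes were left out. Against CD3-positive Trdc cells, 71 genes were higher (1.81% of those tested) and 83 were lower (2.11%) at adjusted p under 0.05, and 149 of these 154 had the same direction in both replicates. At an unadjusted p under 0.05, 593 genes differed. Fitted without the replicate block, 9 genes passed, among them Fcer1g, Klrb1b, Ccdc184, Slc6a20a, Cd247 and Lat but not Kit (adjusted p = 0.15), and DESeq2 called 92, all of them among the 154. Where both classes needed at least 2 Trdc UMIs, which left 10 and 28 cells against 94 and 78, 13 genes passed. Among these were Fcer1g (2.89, adjusted p = 4.45e-10), Klrb1b (1.55, adjusted p = 0.0012) and Kit (1.97, adjusted p = 0.025), but not Gjb2 (1.12, adjusted p = 0.26), Ncr1 (3.59, adjusted p = 0.44), Il22 (0.38, adjusted p = 0.81) or Csf2 (0.62, adjusted p = 0.88). Tnfsf11 (0.45, adjusted p = 0.83), Plcg2 (0.70, 0.90) and Lyn (0.80, 0.95), also named below, did not pass there. Nor did Plxnd1, Dcn, Gsn, Nos2 and Ret (adjusted p = 0.69, 0.19, 0.27, 0.98 and 0.95 in that order). After thinning, Plcg2, Lyn, Tnfsf11, Nr4a1 and Klf6, all named below, did not pass (adjusted p = 0.13, 0.35, 0.29, 0.066 and 0.24 in that order). Sema4c, Gsn, Ret and Nos2, also named below, did not pass either (adjusted p = 0.056, 0.31, 0.32 and 0.063 in that order). Cxxc5 and Plxnd1 were not among the genes tested after thinning. Because CD3 content defined the 2 classes, genes carried by the same cells as CD3 are not independent of the gate.

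Kit was at 438 and 285 CPM in Trdc+ CD3-zero cells, against 106 and 57.1 CPM in CD3-positive Trdc cells. Both replicates of the CD3-zero class lay above both of the CD3-positive class, though the share of all genes so separated was not computed. The fitted log2 ratio was 2.07 ± 0.24 (SE, edgeR adjusted p = 2.98e-05). A Kit UMI was found in 49.2% of Trdc+ CD3-zero cells in replicate 1 (36.6% to 61.9%) and 31.7% in replicate 2 (23.5% to 40.8%), against 14.8% and 9.52% of CD3-positive Trdc cells. After each cell of at least 1000 UMIs was thinned to 1000 UMIs, which left out 3 and 11 Trdc+ CD3-zero cells and 1 and 6 CD3-positive Trdc cells, the shares were 40.3% and 22.0% against 9.35% and 4.04%. For background, a Kit UMI was found in 10.7% and 10% of the Trac and CD3 cells, a level close to that of the CD3-positive Trdc cells, and in 27.3% of the stromal cells of replicate 1 (18.8% to 37.1%) and 0 of 7 in replicate 2 (interval up to 41.0%). Of 9 genes of mast cells, a cell type that also bears Kit, all were at 0 in replicate 1 and 8 in replicate 2, where 1 UMI of Cpa3 was counted.

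Fcer1g, a signalling adaptor of innate receptors, at chr1:171229572-171234365 on the minus strand, was among the genes with the largest ratios. It was at 1679 and 1003 CPM in Trdc+ CD3-zero cells, against 179 and 88.2 CPM in CD3-positive Trdc cells, a log2 ratio of 3.27 ± 0.18 (SE, adjusted p = 1.47e-09). Of the Trdc+ CD3-zero cells, 84.6% and 70.0% had a Fcer1g UMI, against 13.9% and 8.57% of the CD3-positive Trdc cells. Of 5 innate adaptor genes tested, 3 were higher and none was lower (median log2 ratio 1.60, against -0.0050 over all genes), the others called being Plcg2, a phospholipase (1.78 ± 0.33, adjusted p = 0.0036), and the Src-family kinase Lyn (1.60 ± 0.41, adjusted p = 0.033, against 0.10 with DESeq2).

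Of 7 tested genes of the NCR+ ILC3 subset, which bears natural cytotoxicity receptors, 5 were higher and none was lower (median log2 ratio 1.90). Ncr1, encoding the receptor NKp46, gave 21 and 23 UMIs (156 and 104 CPM) in Trdc+ CD3-zero cells, against 3 and 0 UMIs (12.2 and 0 CPM) in CD3-positive Trdc cells. Over both replicates, each taken at its own level, that is a ratio of 19.5 with a counting interval of 6.25 to 98.1 (adjusted p = 0.00022). The lectin-like receptor Klrb1b was at 1248 and 881 CPM against 292 and 218 CPM (log2 ratio 2.0 ± 0.16, adjusted p = 3.95e-07). The gap junction gene Gjb2 was at 713 and 1057 CPM against 138 and 218 CPM (2.28 ± 0.16, adjusted p = 7.89e-08). In all 3 genes the classes did not overlap, but the share of all tested genes separated in this way was not computed.

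Cytokine genes of ILC3s followed the same direction where they passed the test. Il22 was at 1864 and 2285 CPM in Trdc+ CD3-zero cells, against 787 and 1043 CPM in CD3-positive Trdc cells (log2 ratio 1.15 ± 0.12, adjusted p = 6.55e-06). Csf2, encoding GM-CSF, was at 334 and 370 CPM against 85.2 and 187 CPM (1.32 ± 0.28, adjusted p = 0.0098). These were 2 of 9 cytokine genes tested, and none was lower. Il17f was at 104 and 54.2 CPM against 36.5 and 57.1 CPM and did not pass the test (adjusted p = 0.56), and Il17a was too sparse to test, with 2 and 5 UMIs against 11 and 8.

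Of 18 ILC3 core genes tested, 4 were higher and none was lower (median log2 ratio 0.23), Kit, Il22 and Tnfsf11 among them. Tnfsf11, encoding RANKL, was at 958 and 429 CPM in Trdc+ CD3-zero cells, against 475 and 259 CPM in CD3-positive Trdc cells (0.82 ± 0.18, adjusted p = 0.011). Receptors shared by ILC3s and IL-17-making gamma delta T cells did not pass the test. Il7r, the IL-7 receptor chain, was at 2072 and 2064 CPM against 2200 and 2584 CPM (adjusted p = 0.27). Il23r was at 186 and 199 CPM against 183 and 119 CPM (adjusted p = 0.68), and Il1r1 at 253 in both replicates against 276 and 311 CPM (adjusted p = 0.73). Maf, a transcription factor of both lineages, had a log2 ratio of -0.01 ± 0.13 (adjusted p = 0.99).

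Among the genes with the largest called ratios were several with no place in the lists. Asphd2 had 26 UMIs in Trdc+ CD3-zero cells and 2 in CD3-positive Trdc cells, a ratio of 15.6 with a counting interval of 3.91 to 136. Slc6a20a, an amino acid transporter gene, was at 364 and 271 CPM against 24.3 and 51.9 CPM (log2 ratio 3.06 ± 0.32). Ccdc184 (2.93 ± 0.27), Cxxc5 (3.03 ± 0.61), the semaphorin gene Sema4c (2.88 ± 0.55) and the guanine deaminase gene Gda (2.88 ± 0.56) completed the set of 8, with adjusted p of 0.0056 or less. Where both classes needed at least 2 Trdc UMIs, Ccdc184 passed (2.62, adjusted p = 0.00081). Asphd2 (2.25, adjusted p = 0.84), Slc6a20a (1.11, 0.86), Cxxc5 (0.70, 0.98), Sema4c (2.67, 0.54) and Gda (0.66, 0.98) did not pass there. Xcl1, Itga4, Nr4a1 and Klf6, given next, did not pass there either (adjusted p = 0.26, 0.99, 0.81 and 0.75). Of the remaining lists, Xcl1, a chemokine of NK cells and ILC1s, was the only one of 7 NK and ILC1 genes called. It was at 401 and 334 CPM against 20.3 and 125 CPM (2.39 ± 0.37, adjusted p = 0.00059), and the log2 ratio was 4.14 in replicate 1 alone, 1.41 in replicate 2 alone and 1.27 with no limit on Ccl5 and Gzma in CD3-positive Trdc cells. The Xcl1 call was lost with DESeq2 (adjusted p = 0.15). The integrin gene Itga4 was higher (2.16 ± 0.36), and Nr4a1, an early gene after receptor stimulation, was higher (0.83 ± 0.16), while Klf6 was lower (-0.50 ± 0.12).

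**Figure D3:**
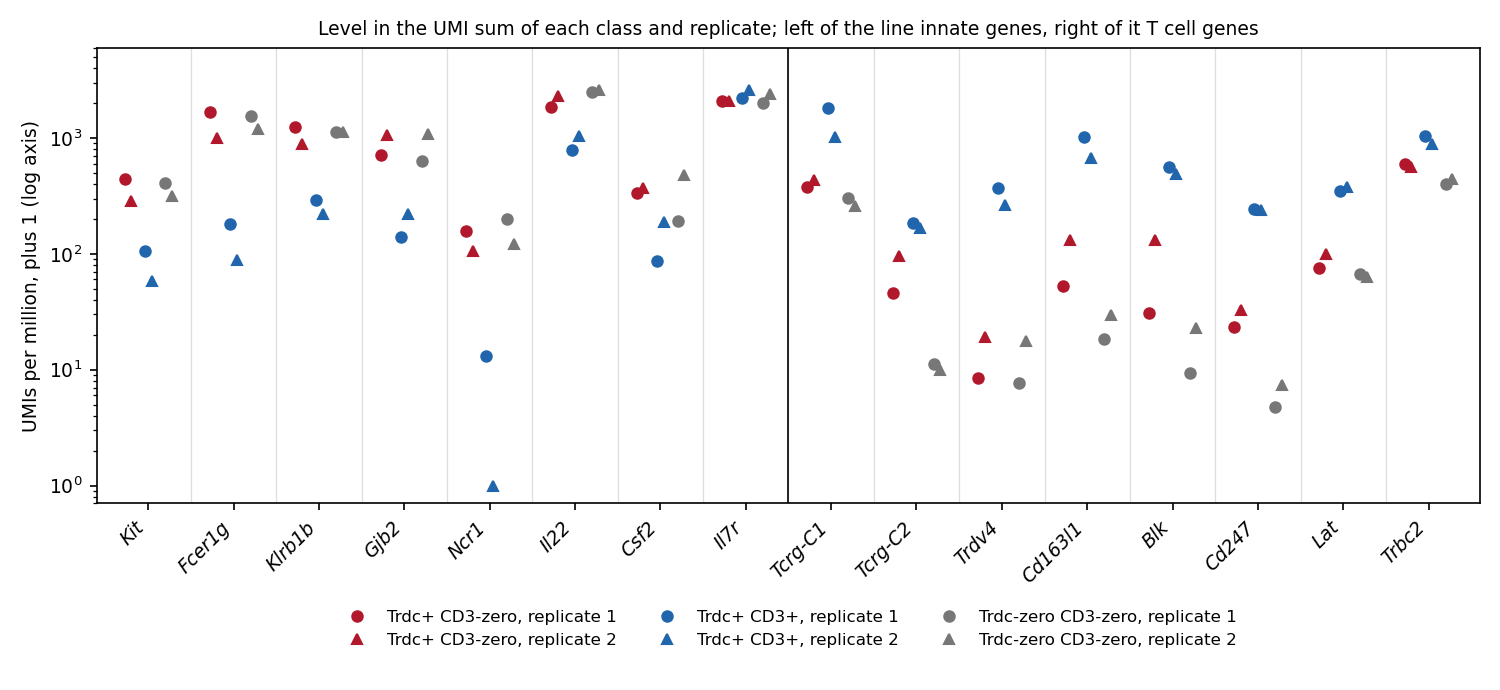
CPM in the summed cells of each class and replicate (log axis, 1 added; circles replicate 1, triangles replicate 2), with innate genes left of the line and T cell genes right of it. Il7r, left of the line, is a receptor gene of both lineages. For Kit the Trdc+ CD3-zero cells are at 438 and 285, near the 406 and 316 of Trdc-zero cells and above the 106 and 57.1 of CD3-positive Trdc cells; for Blk they are at 29.7 and 131, between the other classes.

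Several T cell genes outside the gate were lower in Trdc+ CD3-zero cells than in CD3-positive Trdc cells. Where both classes needed at least 2 Trdc UMIs, which left far fewer cells, Trdv4 (-2.88, adjusted p = 0.0075) and Cd163l1 (-1.39, adjusted p = 0.012) passed. Tcrg-C1 (-0.51, adjusted p = 0.68), Cd247 (-1.44, adjusted p = 0.57), Lat (-0.85, adjusted p = 0.71), Blk (-1.07, adjusted p = 0.36), Ccr2 (-0.82, adjusted p = 0.81) and Trbc2 (-0.44, adjusted p = 0.81) did not pass in that setting. Trdv4, a delta chain variable gene, gave 1 and 4 UMI-positive cells (1.54% and 3.33%) in the CD3-zero class, against 44.4% and 30.5% of CD3-positive Trdc cells. Its level was 7.43 and 18.1 CPM against 365 and 265 CPM (log2 ratio -4.59 ± 0.56, adjusted p = 4.64e-05). The classes also differed in Trdc count. At exactly 1 Trdc UMI, both replicates together, Trdv4 was found in 1 of 147 Trdc+ CD3-zero cells and 0 of 41 CD3-positive Trdc cells. The Trdv4 gap was thus not seen there. In those cells Cd163l1 was at 27.6 CPM in the CD3-zero class against 210 CPM, Blk at 34.5 against 182 CPM and Tcrg-C1 at 248 against 631 CPM. How much of each difference goes with Trdc count was not tested. Of 4 receptor genes tested, Trdv4 and Tcrg-C1 were lower and none was higher (median log2 ratio -1.52).

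The gamma chain constant genes differed among themselves. Tcrg-C1 (chr13:19214103-19217024, plus strand) was at 379 and 429 CPM in Trdc+ CD3-zero cells, against 1810 and 1017 CPM in CD3-positive Trdc cells (-1.78 ± 0.19, adjusted p = 9.59e-06). Tcrg-C2 (chr13:19304649-19307551, minus strand) was at 44.6 and 94.8 CPM against 183 and 166 CPM and did not pass the test (-1.27 ± 0.40, adjusted p = 0.093). Tcrg-C4 was at 238 and 230 CPM against 268 and 228 CPM (-0.08 ± 0.24, adjusted p = 0.94), and Tcrg-C3 was at 0 in all sums. The gamma constant genes are similar in sequence, and reads that fit more than 1 of them may have been split or lost, so the separate values are uncertain. A UMI of any gamma constant gene was found in 61.5% and 57.5% of Trdc+ CD3-zero cells, in 90.7% and 83.8% of CD3-positive Trdc cells and in 50.2% and 39.7% of Trdc-zero cells.

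Of 9 T cell receptor signalling genes tested, 3 were lower and none was higher (median log2 ratio -0.70). Cd247 was at 22.3 and 31.6 CPM in Trdc+ CD3-zero cells, against 243 and 239 CPM in CD3-positive Trdc cells (-3.18 ± 0.45, adjusted p = 0.00022). The adaptor gene Lat was at 74.3 and 99.4 CPM against 349 and 379 CPM (-2.06 ± 0.27, adjusted p = 0.00011). Cd247 and Lat were both at 0 UMIs in 83.1% and 81.7% of Trdc+ CD3-zero cells, against 27.8% and 32.4% of CD3-positive Trdc cells. The kinases that innate lymphocytes also use did not pass: Zap70 had a log2 ratio of -0.14 ± 0.19 (adjusted p = 0.83) and Lck one of 0.10 ± 0.26 (adjusted p = 0.93). Cd5 was at 0 in all sums.

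Of 13 tested genes of the gamma delta T17 list, 3 were lower and 1 was higher (median log2 ratio -0.22). Cd163l1, encoding a scavenger receptor of such cells, was at 52.0 and 131 CPM in Trdc+ CD3-zero cells, against 1027 and 669 CPM in CD3-positive Trdc cells (-3.14 ± 0.33, adjusted p = 6.55e-06). The Src-family kinase gene Blk was at 29.7 and 131 CPM against 560 and 488 CPM (-2.68 ± 0.38, adjusted p = 0.00022), and the chemokine receptor gene Ccr2 at 14.9 and 72.3 CPM against 162 and 291 CPM (-2.41 ± 0.39, adjusted p = 0.00094). The transcription factor gene Sox13 gave 1 and 5 UMIs against 33 and 13 (-2.46 ± 0.99, adjusted p = 0.23). Further genes with the largest lower ratios were Plxnd1, with 1 UMI against 36 (ratio 27.5, counting interval 4.63 to 1116), and the stromal genes Dcn (-2.92 ± 0.36) and Gsn (-2.65 ± 0.52). Of 6 tested genes listed with lymphoid tissue inducer (LTi) cells (median log2 ratio 0.88), the receptor tyrosine kinase gene Ret was the only one called, lower at -1.07 ± 0.29 (adjusted p = 0.049). The Ret call was lost with DESeq2 (adjusted p = 0.19), with no limit on Ccl5 and Gzma in CD3-positive Trdc cells (0.090) and under the looser (0.057) or the stricter (0.15) limits on cell quality. Of 77 tested Rpl and Rps genes, a set taken after the values were seen, 28 were lower and none was higher (median log2 ratio -0.40).

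Trbc2, a constant gene of the beta chain, was at 594 and 565 CPM in Trdc+ CD3-zero cells, against 1031 and 882 CPM in CD3-positive Trdc cells (-0.77 ± 0.15, adjusted p = 0.0041). Trbc1 was at 631 and 605 CPM against 544 and 389 CPM (0.37 ± 0.15, adjusted p = 0.26). A Trbc1 or Trbc2 UMI occurred in 80.0% and 80.8% of Trdc+ CD3-zero cells, in 88.9% and 82.9% of CD3-positive Trdc cells and in 65.8% and 64.3% of Trdc-zero cells. Beta constant transcripts were thus common in cells of every class, those without Trdc and CD3 included.

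Against Trdc-zero cells, the Trdc+ CD3-zero cells differed in few genes. In the same fit, 4 genes were higher (0.102% of 3927) and 27 were lower (0.688%), all 31 in the same direction in both replicates, and 215 genes had an unadjusted p under 0.05. With at least 2 Trdc UMIs required, 18 genes were higher and 24 lower, and 10 of these 42 were among the 31. This comparison shares the Trdc+ CD3-zero sums with the one above. None of the tested genes of the ILC3 core list (18 genes, median log2 ratio -0.03), the NCR+ ILC3 list (7 genes, -0.11), the innate adaptor list (5 genes, 0.12) or the cytokine list (9 genes, -0.30) passed the test, with a median of 0.0036 over all genes. In these lists 3, 0, 0 and 4 genes had an unadjusted p under 0.05, and DESeq2 called none. Kit was at 438 and 285 CPM against 406 and 316 CPM in Trdc-zero cells (-0.03 ± 0.16). A Kit UMI was found in 49.2% and 31.7% of the cells against 46.4% (44.1% to 48.6%) and 35.9% (34.0% to 37.9%), and after thinning in 40.3% and 22.0% against 31.6% and 25.3%. Fcer1g was at 1679 and 1003 CPM against 1558 and 1182 CPM (-0.07 ± 0.13), and Il22 at 1864 and 2285 CPM against 2470 and 2608 CPM (-0.30 ± 0.11, adjusted p = 0.69). A p that misses the threshold does not show that the classes are alike, but these differences were small beside those from the CD3-positive Trdc cells.

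Of the 4 genes higher than in Trdc-zero cells, 3 are T cell genes. Tcrg-C2 was at 44.6 and 94.8 CPM in Trdc+ CD3-zero cells, against 10.2 and 8.93 CPM in Trdc-zero cells (log2 ratio 2.95 ± 0.46, adjusted p = 0.0015). Blk was at 29.7 and 131 CPM against 8.30 and 21.7 CPM (2.55 ± 0.50, adjusted p = 0.0099), and Cd163l1 at 52.0 and 131 CPM against 17.4 and 28.8 CPM (2.10 ± 0.44, adjusted p = 0.022). For all 3 genes both replicates lay above both Trdc-zero sums, and here too the share of all genes so separated was not computed. They came from few cells: a UMI of Tcrg-C2 was present in 4 and 9 Trdc+ CD3-zero cells, of Blk in 4 and 19 and of Cd163l1 in 6 and 15. DESeq2 called the same 3 genes, and none of them passed after thinning (adjusted p = 0.088, 0.23 and 0.53 in that order) or without the replicate block. The fourth gene was the chemokine gene Cxcl10, at 461 and 1102 CPM against 288 and 681 CPM (0.70 ± 0.13, adjusted p = 0.0080). Its ranges overlapped between the classes, since replicate 2 was higher in each. Cd247 had a log2 ratio of 2.42 ± 0.65 (adjusted p = 0.16), 5830411N06Rik one of 2.31 ± 0.65 (adjusted p = 0.22) and Tcrg-C1 one of 0.58 ± 0.19 (adjusted p = 0.44). Trdv4 was at 7.43 and 18.1 CPM against 6.70 and 16.6 CPM (0.24 ± 0.86).

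**Figure D4:**
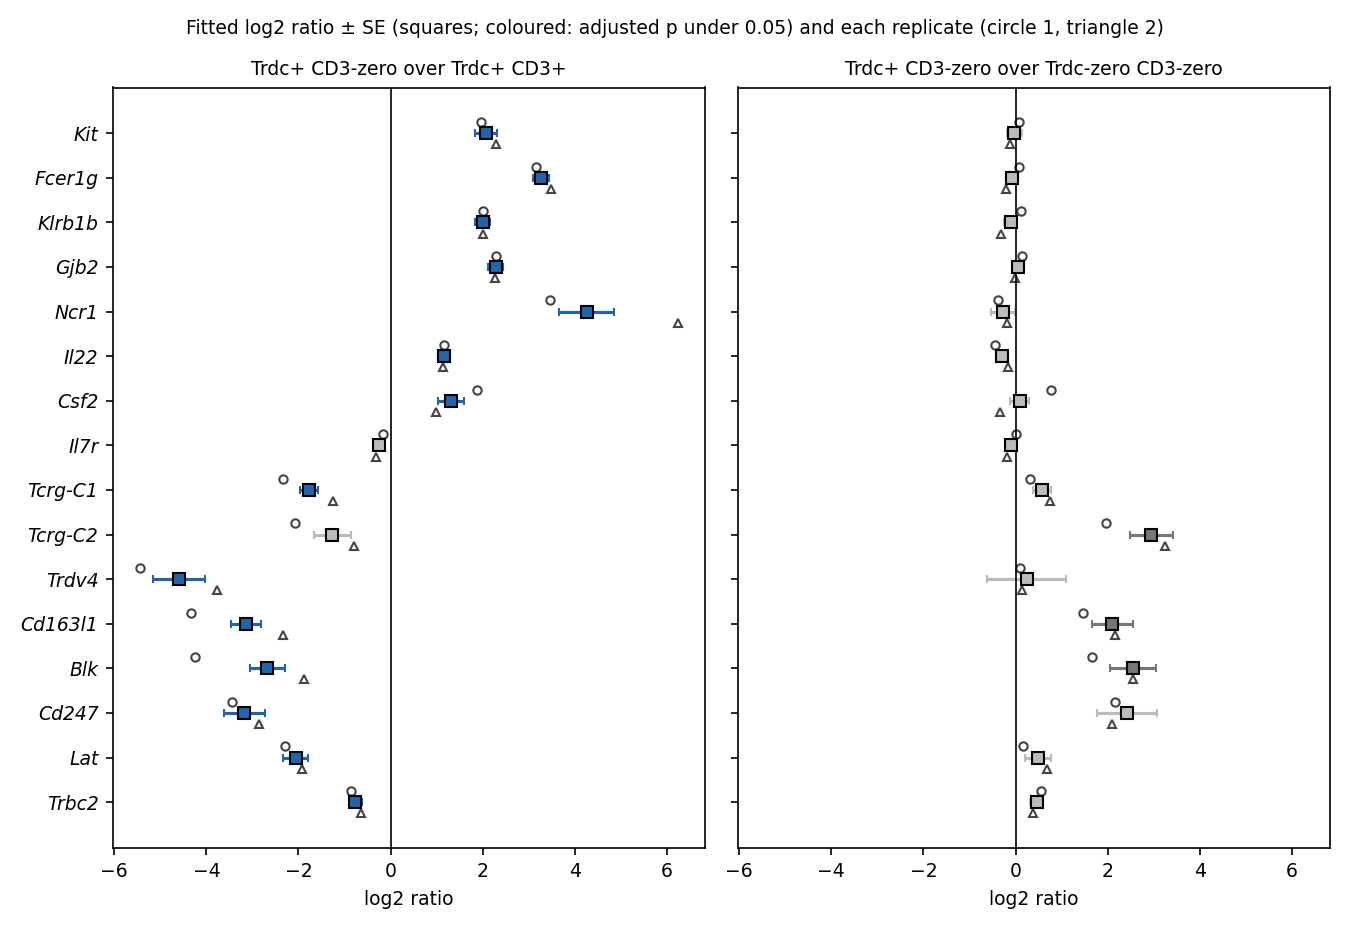
Log2 ratio of Trdc+ CD3-zero cells over CD3-positive Trdc cells (left) and over Trdc-zero cells (right), fitted value ± SE as squares, coloured where the adjusted p is under 0.05, with each replicate as an open symbol. Innate genes such as Fcer1g (3.27) lie right of 0 on the left panel and near 0 on the right panel (-0.07). Il7r, a receptor gene of both lineages plotted with them, lies at -0.24 on the left and was not called. Blk lies at -2.68 on the left and 2.55 on the right.

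The 27 genes lower than in Trdc-zero cells included all 5 tested genes of the stromal list and further genes of matrix and complement proteins. Col1a1, a fibrillar collagen, was at 74.3 and 0 CPM in Trdc+ CD3-zero cells, against 1207 and 17.9 CPM in Trdc-zero cells. A Col1a1 UMI was found in 13.8% and 0% of Trdc+ CD3-zero cells, against 16.4% and 1.09% of Trdc-zero cells, so in replicate 1 the shares differed far less than the levels. The 7 stromal genes summed to 297 and 13.5 CPM against 4491 and 119 CPM, so that replicate 1 carried most of this RNA in both classes. In replicate 1, 3 of 65 Trdc+ CD3-zero cells and 127 of 1905 Trdc-zero cells had at least 3 collagen UMIs, and in replicate 2 none and 8 had. Dpt, Col6a2, Col6a1, Ltbp4, C1s1 and C1ra were at 0 in both Trdc+ CD3-zero sums. With the Trdc-zero level of each replicate and 3 UMIs over both replicates as the floor, they were at least 8.33, 7.21, 7.04, 6.27, 6.06 and 4.80-fold lower in that order. Sfrp1 had 1 UMI against 1066 (ratio 39.7 by the same weighting, counting interval 7.11 to 1570.0) and Adamdec1 2 against 1606 (ratio 30.2, 8.35 to 249.8). The log2 ratio of Adamdec1 was -5.52 in replicate 1 and -2.46 in replicate 2. Without cells rich in collagen or immunoglobulin UMIs, an alternative chosen after seeing the data, 8 genes differed from Trdc-zero cells. The 4 higher genes were the same as above, and the 4 lower ones were the class II genes H2-Aa, H2-Ab1, H2-Eb1 and Cd74; Col1a1, Col3a1 and Dcn were no longer called.

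Of the 6 tested LTi genes (median log2 ratio -1.11), the antigen presentation genes H2-Aa and Cd74 were lower and none was higher. H2-Aa, a class II molecule, was at 119 and 31.6 CPM in Trdc+ CD3-zero cells, against 325 and 164 CPM in Trdc-zero cells (-1.81 ± 0.32, adjusted p = 0.0042). Cd74, the class II invariant chain, was at 230 and 72.3 CPM against 515 and 278 CPM (-1.48 ± 0.30, adjusted p = 0.013). Of 17 early response genes tested (median log2 ratio -0.23), 1 was called, Egr1, at 305 and 40.6 CPM against 657 and 140 CPM (-1.34 ± 0.25, adjusted p = 0.0086). Without cells rich in collagen or immunoglobulin UMIs its log2 ratio was -0.55 (adjusted p = 0.99), and the call was lost. DESeq2 called none of H2-Aa, Cd74 and Egr1. Ccr6 and Cd4, which mark LTi cells, were rare in both classes. A Ccr6 UMI was found in 3.08% and 0% of Trdc+ CD3-zero cells, against 3.88% and 1.61% of Trdc-zero cells, and a Cd4 UMI in 1.54% and 0% against 3.67% and 1.74%. The adaptor gene Tyrobp, which is on the innate adaptor list, was found in 0% and 0.833% against 4.20% and 3.23%. Markers of B and plasma cells summed to 854 and 13462 CPM in Trdc+ CD3-zero cells, and a single cell of replicate 2 held 2944 of the 2954 immunoglobulin UMIs there. In CD3-positive Trdc cells they summed to 14459 and 57.1 CPM, with 3451 of 3551 in 1 cell of replicate 1. Epithelial genes summed to 7.43 and 9.03 CPM, with 7 of 8 genes at 0 in each replicate.

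The Trdc+ CD3-zero cells were not uniform. A pair of short lists was set after the values were seen, 7 T cell genes (Cd163l1, Blk, Sox13, Trdv4, Tcrg-C2, Cd247 and 5830411N06Rik) and 5 innate genes (Fcer1g, Kit, Gjb2, Klrb1b and Ncr1), so their counts are a description without a test. In replicate 1, 52 of 65 cells had UMIs of innate genes only, 8 of both lists, 4 of T cell genes only and 1 of neither. In replicate 2, 83 of 120 had innate genes only, 21 both, 13 T cell genes only and 3 neither. Among CD3-positive Trdc cells, 6 of 108 and 6 of 105 had innate genes only, while 55 and 48 had T cell genes only. Among Trdc-zero cells, 1723 of 1905 and 1965 of 2293 had innate genes only.

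The share with a T cell gene followed the number of Trdc UMIs. Of Trdc+ CD3-zero cells with 1 Trdc UMI, 14.5% in replicate 1 and 17.4% in replicate 2 had a UMI of the 7 T cell genes, against 7.40% and 11.3% of Trdc-zero cells, and 94.5% and 94.6% had one of the 5 innate genes, against 97.3% and 95.9%. Of those with 2 or more Trdc UMIs, 4 of 10 and 18 of 28 had a T cell gene and 8 of 10 and 17 of 28 an innate gene. Of those with 3 or more, 3 of 5 and 16 of 17 had a T cell gene. Median depth was 2131 and 1716.5 UMIs in the cells with 1 Trdc UMI, against 1693.5 and 1585 in those with 2 or more, so the cells with more Trdc were not the deeper ones. Among CD3-positive Trdc cells with 1 Trdc UMI, 57.1% (8 of 14) and 59.3% (16 of 27) had a T cell gene. Of all CD3-positive Trdc cells, 92.6% and 81.9% had one, so this order was not particular to the Trdc+ CD3-zero cells.

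Each of the 7 T cell genes was at a higher CPM in the cells with 2 or more Trdc UMIs in both replicates. The 7 genes were chosen after the values were seen, and the share of all genes with this order was not computed. In replicate 1 all 7 rest on few UMIs. Tcrg-C2 was at 60.0 CPM (1 UMI) against 42.4 CPM (5 UMIs) in the cells with 1 Trdc UMI. Sox13 and Trdv4 also had 1 UMI each in the 10 cells with 2 or more Trdc UMIs. Cd163l1 had 2, and Blk, Cd247 and 5830411N06Rik had 3 each in those cells with 2 or more Trdc UMIs. Of the 5 innate genes, Fcer1g and Gjb2 were lower there in both replicates, and the order of the other 3 turned between them. Blk was at 180 and 404 CPM in cells with 2 or more Trdc UMIs and at 8.48 and 52.3 CPM in those with 1. Tcrg-C1 was at 1320 and 1052 CPM against 246 and 250 CPM, and Gjb2 at 360 and 526 CPM against 763 and 1209 CPM. Kit was at 600 and 202 CPM against 415 and 308 CPM, Klrb1b at 1320 and 526 CPM against 1238 and 983 CPM, and Ncr1 at 180 and 20.2 CPM against 153 and 128 CPM. Where only cells with exactly 1 Trdc UMI were set against Trdc-zero cells, a split chosen after seeing the data, Tcrg-C2 (log2 ratio 1.71, adjusted p = 0.90), Blk (1.17, adjusted p = 0.98) and Cd163l1 (0.25, adjusted p = 1.0) no longer passed. Where Trdc of at least 2 UMIs was required, leaving 10 and 28 cells, Blk (4.33, adjusted p = 1.16e-09), Cd163l1 (4.05, adjusted p = 1.59e-10), Tcrg-C2 (4.66, adjusted p = 2.21e-08), Tcrg-C1 (1.98, adjusted p = 1.84e-09), Cd247 (4.26, adjusted p = 0.0021) and Sox13 (5.60, adjusted p = 0.00015) were higher than in Trdc-zero cells. The last 2 ratios rest on few UMIs. Sox13 had 1 and 5 UMIs against 15 and 1 in Trdc-zero cells, and Cd247 had 3 and 4 against 14 and 25. In that setting Il22 (-0.996, adjusted p = 0.0030) and Gjb2 (-1.05, adjusted p = 0.025) were lower than in Trdc-zero cells, while Kit still did not pass (-0.24, adjusted p = 0.90).

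**Figure D5:**
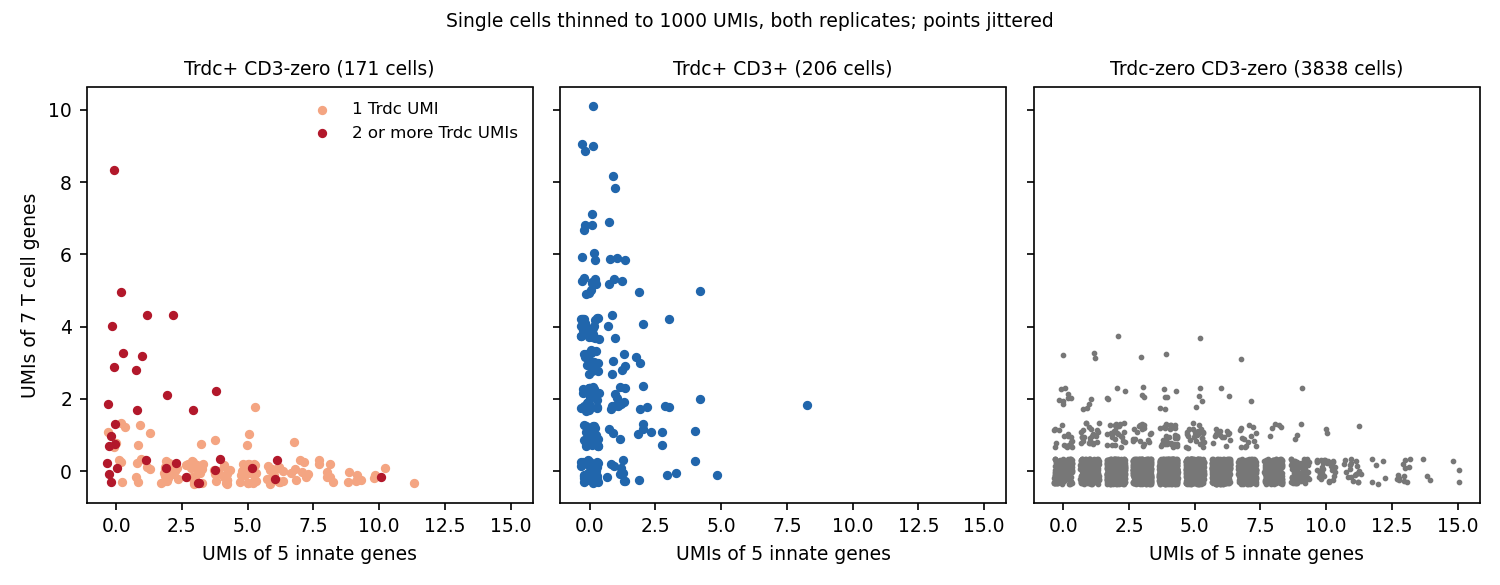
Each point is a cell thinned to 1000 UMIs (both replicates, jittered), with UMIs of the 5 innate genes on the horizontal axis and of the 7 T cell genes on the vertical axis, in 171 Trdc+ CD3-zero, 206 CD3-positive Trdc and 3838 Trdc-zero cells. Cells with 1 Trdc UMI spread along the innate axis as Trdc-zero cells do, and those with 2 or more reach higher on the T cell axis.

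Kit and a UMI of the 7 T cell genes occurred together in 4 and 8 Trdc+ CD3-zero cells. That is 6.15% and 6.67% of these cells, against 11.1% and 6.67% of CD3-positive Trdc cells and 3.62% and 3.53% of Trdc-zero cells. Kit occurred with Fcer1g in 29 and 32 cells, with Il22 in 22 and 25 and with Ncr1 in 8 and 6. Il22 and a T cell gene occurred together in 7 and 17 cells, which is 10.8% and 14.2% of the Trdc+ CD3-zero cells, against 21.3% and 31.4% of CD3-positive Trdc cells and 4.20% and 5.89% of Trdc-zero cells.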

How the data were processed

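Per the file headers, the authors made the deposited counts with BD's whole-transcriptome Rhapsody pipeline, version 1.8; the reference was GRCm38 plus PhiX, annotated by GENCODE M19. The values are whole-number UMI counts per cell and gene after error correction, not normalized. The submitters' processing notes also name HISAT2 2.0.5, Bowtie2, mm10 and GRCm38.p6. Cells were taken by the deposited sample tag calls, and multiplets and undetermined cells were left out; no doublet caller was run. Gate genes, cell lists and settings were chosen with earlier results of these data known. Genes are named by the 8 largest called ratios per direction (same direction in both replicates, at least 50 CPM in the higher class) and from lists of markers, and a few of these are not reported here; CPM are UMIs scaled to a class total of 1000000.

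UMI sums of 3 classes in 2 replicates were fitted in 1 model with edgeR 4.0.16 (R 4.3.3), TMM scaling, filterByExpr and the replicate as a block, since classes of a replicate share a library, leaving 2 residual degrees of freedom. The fit was tested on simulated data. Class totals were 134630 and 221431 UMIs for Trdc+ CD3-zero cells, 246422 and 192744 for CD3-positive Trdc cells and 3732904 and 3921286 for Trdc-zero cells, so the first 2 limit the precision. Log2 ratios per replicate used a prior count of 2. DESeq2 1.42.0, depth thinning and other gates and filters were alternatives.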

Additional observations from a re-analysis of the deposited data

How the results depend on the processing

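Against CD3-positive Trdc cells 154 genes were called, and against Trdc-zero cells 31. With DESeq2 the counts were 92 and 11, with cells thinned to 1000 UMIs 75 and 0 (of 2175 genes tested), with Trbc1 and Trbc2 also at 0 26 and 4 (of 677 genes tested), and with Trdc of at least 2 UMIs 13 and 42 (18 higher and 24 lower). Without the filter on low counts 64 genes were called against Trdc-zero cells, and without immunoglobulin-rich and collagen-positive cells 8. Without the replicate block, edgeR called 9 and 0 (48 with an unadjusted p under 0.05; 112 for the 0 after thinning); the replicates' shared level then enters the spread. The settings that left both counts within 1.5 times were no limit on Ccl5 and Gzma in the comparison classes (162 and 30), the looser cell filter (136 and 30), the stricter one (104 and 28) and cells with exactly 1 Trdc UMI (226 and 29). The share of Trdc+ CD3-zero cells was 0.514% with 2 or more Trdc UMIs and 0.494% with Trbc1 and Trbc2 at 0, and the Kit share averaged 25.7% with 2 or more Trdc UMIs. Leaving out each replicate gave 1.95% to 3.13% for the share of cells, 31.7% to 49.2% for Kit and 37.6% to 53.3% for the share without CD3 among Trdc-positive cells; no test is possible with 1 replicate.

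Among 33 named genes called against CD3-positive Trdc cells, 4 alternative values changed direction: Dcn (0.63) without immunoglobulin-rich and collagen-positive cells, Tnfsf11 (-0.11) with Trbc1 and Trbc2 at 0, and Nos2 (-0.54) and Ret (0.38) with Trdc of at least 2 UMIs. Against Trdc-zero cells these were Dcn (0.27) without those cells and Cxcl10 (-0.19) with Trbc1 and Trbc2 at 0, and Gjb2, not called in the main setting, was called lower (-1.05) with 2 or more Trdc UMIs. The cause was not tested. Depth limits the smallest classes most: 10 and 28 cells with 2 or more Trdc UMIs.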
